A study of Mus musculus with 19 samples.

Results

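The comparison described here sets the effect of losing Cdk8 against the effect of losing Cdk19 in mouse bone marrow: for each gene, the change in CDK8KO against its Cre control VAV, minus the change in CDK19KO against wild type (WT). It uses 15 of the 19 samples of the series, namely WT (n = 3), VAV (n = 4), CDK8KO (n = 4) and CDK19KO (n = 4). The samples were chosen by their genotype labels alone, and the double knockout (DKO, n = 4) took no part in the contrast, though it shared the estimate of the spread. The material was polyadenylated RNA from marrow flushed out of the tibiae and femurs of mice 8 weeks old on the C57/BL6 background. WT carried neither transgene nor deletion, and VAV carried the Vav-iCre transgene only, which expresses Cre recombinase in blood-forming cells. CDK8KO carried Cdk8 flox/flox with Vav-iCre, so the deletion depends on where that transgene is active. CDK19KO carried Cdk19null and no Cre, and DKO carried Cdk8 flox/flox, Vav-iCre and Cdk19null together. A deletion driven in blood-forming cells was thus set against a null allele that needs no Cre, and each had a control of its own. The mice were untreated, per the labels.

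CDK8 and CDK19 are paralogous cyclin-dependent kinases. Either one, with cyclin C, MED12 and MED13, forms the kinase module that docks reversibly onto Mediator, the complex that carries signals from transcription factors to RNA polymerase II. Bone marrow holds stem cells and the precursors of red cells, platelets, granulocytes, monocytes and lymphocytes, so a bulk RNA value there mixes many cell types.

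Interferon signalling acts on its target genes through short promoter sequences. The promoters of 3 interferon-responsive genes are shown because 32 of 34 interferon-stimulated genes and 11 of 14 interferon-induced GTPases had a difference below 0. Of all 13976 genes tested, 6990 had one below 0. Capitals mark matches to GAAANNGAA, 9 letters of the interferon-stimulated response element, on either strand. Overlapping matches were allowed. Each sequence is the 250 bases before the RefSeq start on build GRCm38.p6, 5′ to 3′ on the gene's own strand: chr19:34640639-34640888 (plus strand) for Ifit1, chr11:58199306-58199555 (plus strand) for Igtp and chr11:49064213-49064462 (minus strand) for Tgtp2. Ifit1 encodes an interferon-induced protein that binds foreign RNA, and Igtp and Tgtp2 encode interferon-induced GTPases that act on vacuoles around pathogens.
Ifit1: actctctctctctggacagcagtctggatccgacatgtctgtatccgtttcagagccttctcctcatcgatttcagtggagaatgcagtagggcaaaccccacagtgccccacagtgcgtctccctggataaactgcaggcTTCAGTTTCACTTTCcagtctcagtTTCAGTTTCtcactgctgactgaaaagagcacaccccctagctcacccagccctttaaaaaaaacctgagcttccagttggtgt
Igtp: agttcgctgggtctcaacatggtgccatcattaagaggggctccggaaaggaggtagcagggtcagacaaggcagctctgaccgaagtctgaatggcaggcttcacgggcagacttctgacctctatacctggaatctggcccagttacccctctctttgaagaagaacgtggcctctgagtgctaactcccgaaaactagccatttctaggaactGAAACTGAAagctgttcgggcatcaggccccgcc
Tgtp2: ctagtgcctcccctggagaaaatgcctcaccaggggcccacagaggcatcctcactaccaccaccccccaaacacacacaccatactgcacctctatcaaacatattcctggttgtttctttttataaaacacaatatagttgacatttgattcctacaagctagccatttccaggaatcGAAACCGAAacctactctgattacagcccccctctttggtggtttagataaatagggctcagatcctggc
The Ifit1 sequence held 3 matches, all on the opposite strand and 2 of them overlapping, whereas Igtp and Tgtp2 held 1 each. RefSeq windows of 300 bases (250 before and 50 after the start) were found for 25 of the 34 interferon-stimulated genes, and 15 of the 25 (60%) held a match. For the interferon-induced GTPases, 9 of 14 genes had a window and all 9 (100%) held a match, against 964 of 10505 tested genes with a window (9.18%). The windows of Irf7 and Cmpk2, described below with the interferon genes, held no match, and Gbp6 had no window. The 3 promoters printed are thus the ones with a match among the interferon genes described. A match describes the sequence and is not evidence of binding.

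Libraries held 16376215 to 33010241 reads assigned to genes over the 15 libraries used. Defining markers of marrow were present in every library, among them Mpo of granulocyte precursors (24930 normalized counts or more), Cd79a of B cells (773 or more) and Ptprc, the leukocyte antigen CD45 (23302 or more). Whether every library is a mouse of its own is not in the labels, so the p-values reflect the spread among libraries, part of which may be technical. Red cell genes took 0.160 to 4.04% of reads, with CDK8KO replicate 1 (4.04%) and VAV replicate 3 (3.51%) above all other libraries. CDK19KO replicate 4 held 0.141% of its reads in skeletal muscle genes, and the other 14 libraries used held at most 0.00318%. These 3 libraries stand apart, and the values they move most are also given without them.

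Cdk19 was the 1 gene whose effects in the 2 knockouts differed past the test. Of 13976 genes tested, 1 passed limma's test of the difference (0.00716%), with a higher value after Cdk8 loss than after Cdk19 loss, and 0 passed in the other direction (0%). At an unadjusted p under 0.05 there were 665 genes (4.76%), of which 295 were above 0 and 370 below. The count on recovered whole reads was also 1 with edgeR and 1 with DESeq2, again Cdk19. The next smallest limma adjusted p was 0.912.

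The precision sets what could have been seen. The standard error of the difference had a median of 0.289 on the log2 scale, and the 95% interval had a median half-width of 0.61. For 8358 genes (59.8%) the interval lay wholly between -1 and 1, so a difference of more than 2-fold lay outside it. For the remaining genes the interval reached past -1 or 1, and 686 genes had a point value beyond 1 in size. Across the 13976 genes, the 2 effects had a Pearson correlation of 0.0317 and a Spearman correlation of 0.0150, and 49.7% of genes had the same sign in both. These are descriptions across genes of the same libraries, and genes are not independent replicates.

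**Figure D1:**
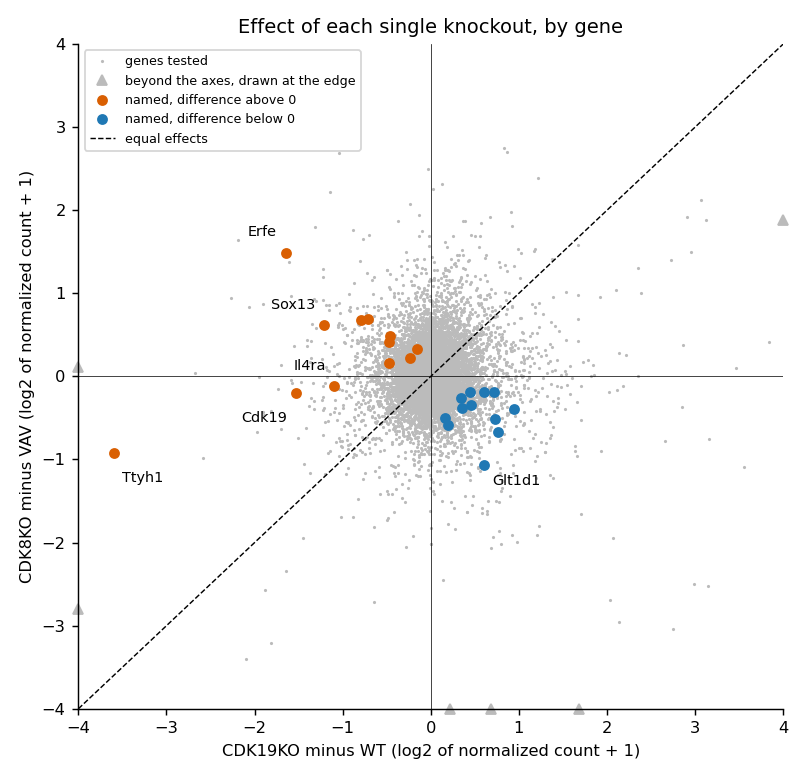
Each point is 1 of 13976 genes, with the change in CDK19KO against WT on the horizontal axis and the change in CDK8KO against VAV on the vertical axis, both as log2 of normalized count + 1; triangles at the edge are 6 genes beyond ±4. Coloured points are the 12 genes on each side with the smallest unadjusted p, the dashed line marks equal effects, and Cdk19, at -1.53 across and -0.19 up, is the 1 gene past the adjusted test.

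The difference of effects equals the direct difference between the knockouts, CDK8KO minus CDK19KO, less the difference between their controls, VAV minus WT. Both parts are given below for the genes described most fully, since a gene can differ in effect because the knockouts differ, because the controls differ, or both. The effects of the single knockouts had an SD over genes of 0.375 for Cdk8 loss and 0.347 for Cdk19 loss. The direct difference between knockouts had an SD of 0.399 and the difference between controls 0.456. The gap between controls was larger than the gap between knockouts for 61.9% of all genes, and for 473 of the 665 genes with an unadjusted p under 0.05 (71.1%). The test between the knockouts called 7 genes (0.0501%), that between the controls 13 (0.093%), that of CDK19KO against WT 3 (0.0215%) and that of CDK8KO against VAV 0 (0%). For CDK8KO against VAV, 1161 genes had an unadjusted p under 0.05 (8.31%), edgeR called 0 and DESeq2 called 1. The unadjusted counts were 429 for CDK19KO against WT (3.07%), 926 between the knockouts (6.63%) and 2068 between the controls (14.8%).

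Cdk19 (ENSMUSG00000038481; GRCm38/mm10 chromosome 10, 40339564 to 40483818) read 3214, 3216 and 3042 normalized counts in the WT libraries and 1174, 1025, 1072 and 1092 in CDK19KO. In VAV it read 3703, 4304, 3020.5 and 3646, and in CDK8KO 2709.6, 3498, 3015 and 3579. Every CDK19KO library lay below every other library of the 4 groups, whereas CDK8KO and VAV overlapped. In CDK19KO against WT, Cdk19 fell by 1.53 on the log2 scale (limma adjusted p = 9.85e-07), and its value in CDK8KO against VAV was -0.19 ± 0.11 (SE; limma adjusted p = 0.597). The difference of effects was 1.34 ± 0.16 (SE; 95% interval 1.01 to 1.67; limma adjusted p = 0.00121). This gene is the one deleted in CDK19KO, so its call checks the label and says nothing of a target of either kinase.

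Cdk8 (ENSMUSG00000029635; chromosome 5, 146231230 to 146302874) gave no such check. It read 1298, 1052, 1011 and 692 in CDK8KO, overlapping VAV at 994, 789, 1315 and 877. Which part of Cdk8 is floxed is not in the labels. A count over the whole gene would still include reads from a transcript that lacks only some exons, so it does not test the deletion. The libraries labelled CDK8KO are therefore taken at their label in every value below. Where Cdk19 was lost, Cdk8 read 972, 1102, 1332 and 1124, overlapping 1206, 1243 and 1275 in WT (log2 difference -0.14). The difference of effects for Cdk8 was 0.16 (95% interval -0.36 to 0.68), and 0.03 without CDK8KO replicate 1.

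Of the 7 genes of the kinase module, 1 passed the test and 3 had a difference above 0, with a median of -0.04 beside -0.00014 over all genes tested. As single libraries were left out, that median lay between -0.11 and 0.04. Ccnc, which encodes cyclin C, the activating partner of both kinases, had a difference of 0.14 (95% interval -0.24 to 0.52). Med12, whose protein activates the kinases, had -0.04 (-0.47 to 0.40), and Med13, whose protein tethers the module to Mediator, had -0.17 (-0.71 to 0.37). Their paralogs Med12l and Med13l had -0.29 (-1.45 to 0.86) and -0.21 (-0.60 to 0.18). Of these 5 intervals, 4 excluded a 2-fold difference in either direction, and that of Med12l did not. Med13 in CDK8KO ranged from 8608 to 14935, the highest value being replicate 3.

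Genes that differ with the Cre transgene show what the subtraction of controls removes. Prox1, a homeodomain transcription factor, read 518, 848 and 533 in WT and 941, 332, 492 and 484 in CDK19KO, but 3.57, 8.02, 6.1 and 4.2 in VAV and 4.35, 2.5, 2.19 and 2.26 in CDK8KO. It was lower by 7.13 on the log2 scale in CDK8KO than in CDK19KO (log2 difference -7.13, limma adjusted p = 1.36e-10), while the controls differed by -6.63 (limma adjusted p = 1.97e-09). The difference of effects was -0.50 (95% interval -1.50 to 0.50). Commd10 gave 2.13 between the knockouts (limma adjusted p = 2.07e-06), 1.57 between the controls (limma adjusted p = 0.00103) and 0.56 for the difference of effects (-0.01 to 1.12). Both genes were named after their values were seen. The direct comparison of the knockouts called both, and the difference of effects called neither. The Prox1 values of VAV and CDK8KO lay near the floor of 3 reads, so the size of its fitted differences depends on the 1 added before taking logs.

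**Figure D2:**
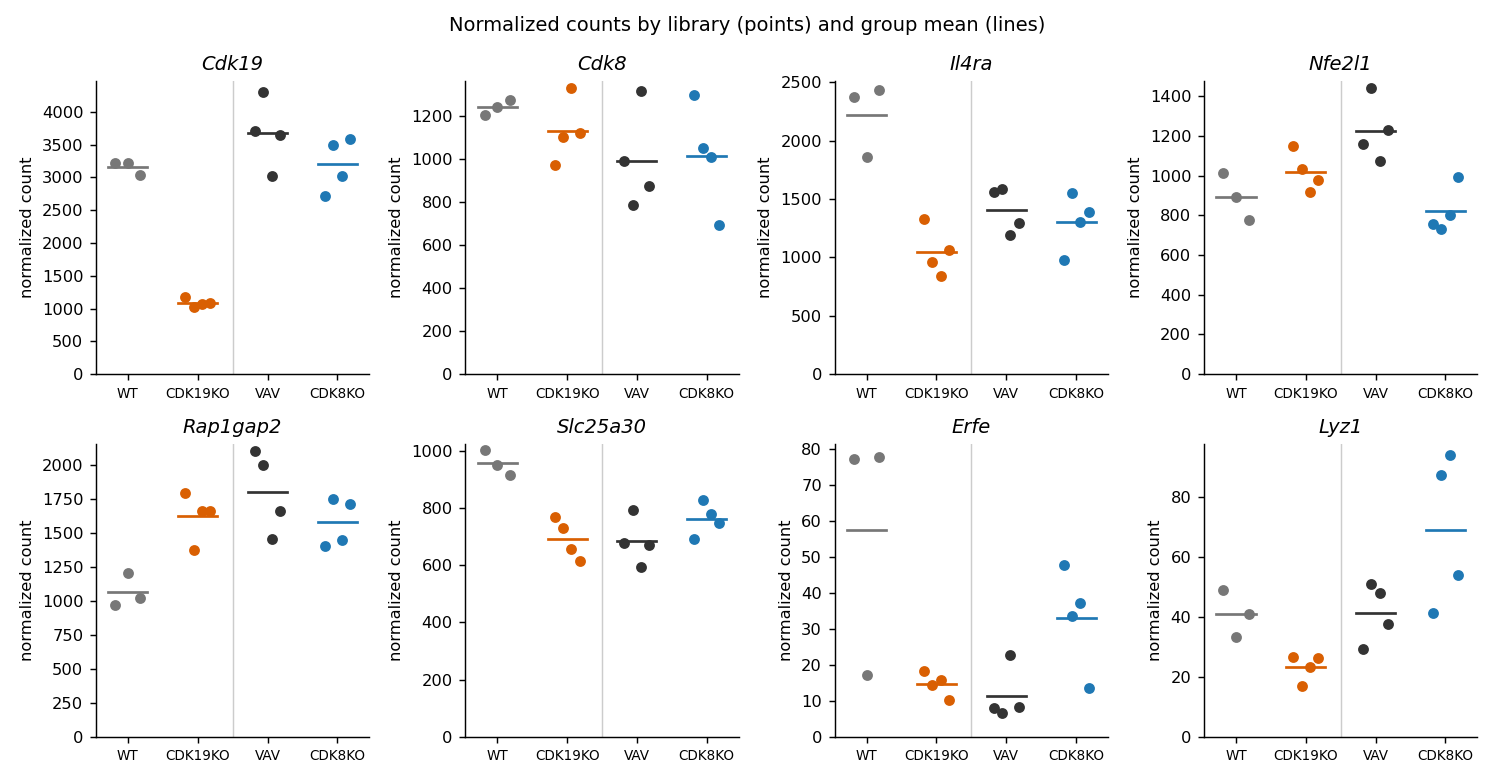
Normalized counts of 8 genes in each library (points) with the group mean (line), the vertical line separating the 2 Cre-free groups from the 2 Cre-carrying groups; each vertical axis starts at 0. The 4 CDK19KO libraries of Cdk19 sit between 1025 and 1174, below all others, while Cdk8 overlaps across all 4 groups, and the WT and VAV libraries of Il4ra, Nfe2l1, Rap1gap2 and Slc25a30 do not overlap.

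The 23 other genes that the naming rule took all had a limma adjusted p of 0.912 and so did not pass. They are described because they had the smallest unadjusted p on each side, at most 0.00395, and reached a group mean of 50 or more. Of all 24, 18 had a larger gap between the controls than between the knockouts, and 21 had effects of opposite sign in the 2 knockouts, which selection on the difference favours. Such selection also favours groups that do not overlap, and the share of all genes without overlap was not counted. For these 23 genes the main limma fit thus gives no call of a difference in effects. Calls in other comparisons of the groups are named with the gene.

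Among signalling genes, Il4ra (ENSMUSG00000030748; chromosome 7, 125552120 to 125579474), which encodes the receptor chain shared by interleukin-4 and interleukin-13, came next after Cdk19 among the named genes on the upper side. It read 2374, 1864 and 2432 in WT and 1326, 957, 843 and 1067 in CDK19KO, against 1561, 1588, 1196 and 1292 in VAV and 976, 1549, 1304 and 1393 in CDK8KO. All WT libraries were above all others, and the 2 knockouts overlapped. In CDK19KO against WT, Il4ra fell by 1.09 (limma adjusted p = 0.0237), while CDK8KO minus VAV was -0.12. The difference of effects was 0.97 ± 0.23 (SE; 95% interval 0.50 to 1.45), made of 0.32 between the knockouts and -0.66 between the controls. When the erythroid level entered the fit as a covariate, the difference was 1.12 and passed (limma adjusted p = 0.0405), and in no other setting did it pass (DESeq2 adjusted p = 0.097). The count of genes called in CDK19KO against WT dropped from 3 to 1 without WT replicate 1 or 3, or CDK19KO replicate 2 or 4. The 3 were Cdk19, Il4ra and Ttyh1, described below, so at most 1 of them passed in each of those fits.

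Lyz1, which encodes a lysozyme, was the named gene whose difference owed least to the controls. It read 41.3, 87.4, 94.1 and 54.3 in CDK8KO and 26.8, 17.0, 23.4 and 26.4 in CDK19KO, with every CDK8KO library above every CDK19KO library. WT at 49.0, 33.2 and 40.9 overlapped VAV at 29.4, 51.0, 47.9 and 37.8. The direct difference was 1.47 (limma adjusted p = 0.0781), the gap between controls was 0.00 and the difference of effects was 1.47 (95% interval 0.57 to 2.36). Lyz1 has a close paralog in Lyz2, between which reads could be divided, so its values are uncertain.

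Among the 12 genes named by rule on the upper side, Erfe and Ttyh1 had the largest differences. Erfe (ENSMUSG00000047443; chromosome 1, 91366430 to 91374217) encodes erythroferrone, the hormone through which red cell precursors lower hepcidin. It read 77.3, 17.3 and 78.005 in WT, 18.3, 14.4, 15.9 and 10.3 in CDK19KO, 8.03, 6.56, 22.7 and 8.39 in VAV and 47.8, 33.7, 37.2 and 13.6 in CDK8KO. The groups overlapped within each pair, and the difference was 3.13 ± 0.77 (SE; 95% interval 1.51 to 4.76), with 1.01 between the knockouts and -2.12 between the controls. Ttyh1, which encodes a membrane protein of the tweety family, read 85.0, 54.5 and 38.4 in WT and at most 10.3 in the other 12 libraries. In CDK19KO against WT it fell by 3.60 (limma adjusted p = 0.0425) and was -2.88 in VAV against WT, so its difference of 2.68 (0.98 to 4.38) rested on the 3 WT libraries. The knockouts differed by -0.20, with CDK8KO values of 2.26 to 3.74 that lay at the floor of 3 reads.

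The other 7 named genes on the upper side had differences from 0.46 to 1.83. Sox13, a transcription factor of gamma-delta T cells, read 70.7, 109, 53.4 and 110.2 in CDK19KO and 241, 98.6, 205 and 239.6 in CDK8KO, overlapping in 1 library. Its difference was 1.83 (95% interval 0.81 to 2.85) and the gap between knockouts 1.16, larger than the -0.67 between controls. Slc25a30, a carrier of the mitochondrial inner membrane, was lower in all CDK19KO libraries (613 to 767) than in all WT libraries (914 to 1003), with a difference of 0.63 (0.31 to 0.95). Dut, whose enzyme keeps uracil out of DNA, was higher in all CDK8KO libraries (2407 to 3012) than in all VAV libraries (2051 to 2348), with a difference of 0.49 (0.18 to 0.81). Kbtbd8, a substrate adaptor of a CUL3 ubiquitin ligase, had 0.89 (0.35 to 1.43), and Dhx36, a helicase that unwinds G-quadruplexes, had 0.46 (0.17 to 0.75). Prkrip1 (1.398, interval 0.61 to 2.19) and the zinc finger gene Zfp973 (0.95, interval 0.34 to 1.55) both had a larger gap between controls than between knockouts. So did Slc25a30 (-0.49 against 0.14), Dut (-0.31 against 0.18) and Dhx36 (-0.36 against 0.096), but not Kbtbd8 (-0.35 against 0.54). All VAV libraries of Slc25a30, Dut and Zfp973 lay below all WT libraries.

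On the lower side, Nfe2l1 and Tbc1d9b were the genes whose CDK8KO libraries stood clear of their own control. Nfe2l1 (ENSMUSG00000038615; chromosome 11, 96817414 to 96829968) encodes a transcription factor that drives proteasome genes. It read 758, 734, 801 and 995 in CDK8KO, all below VAV at 1162, 1442, 1076 and 1232, whereas CDK19KO at 1151, 1037, 916 and 978 overlapped WT at 1012, 895 and 775. The difference was -0.78 ± 0.19 (SE; 95% interval -1.16 to -0.39), of which -0.32 lay between the knockouts and 0.46 between the controls. Tbc1d9b, which encodes a Rab GTPase-activating protein, read 873 to 1179 in CDK8KO and 1326 to 1782 in VAV, with a difference of -0.67 (-1.05 to -0.29). Of this, -0.31 lay between the knockouts and 0.36 between the controls. For both genes every VAV library lay above every WT library, while CDK8KO overlapped WT and CDK19KO.

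For Rap1gap2, Zfp366, Mtmr14, Creb3l2, Sash1 and Tgm3, the CDK19KO libraries stood clear above WT, and so did the VAV libraries. The contrast that picked these genes uses WT, CDK19KO and VAV, so selection favours this separation. Rap1gap2 (ENSMUSG00000038807; chromosome 11, 74383356 to 74610915) encodes an inhibitor of the small GTPase Rap1. It read 972, 1203 and 1020.5 in WT, and 1789, 1369.6, 1659 and 1663 in CDK19KO. VAV read 2098, 1996, 1457 and 1661, and CDK8KO 1403, 1749.7, 1448 and 1709. WT was the low group, and the 3 others overlapped. The difference was -0.79 ± 0.19 (SE; 95% interval -1.19 to -0.39), with -0.04 between the knockouts. Rap1gap2 rose in VAV against WT by 0.75 (limma adjusted p = 0.0414), as did Tgm3, a transglutaminase gene, by 1.52 (limma adjusted p = 0.0392). The number of genes called between the controls ranged from 3 to 416 as single libraries were left out, 416 being the count without VAV replicate 3. The differences were -1.43 for Tgm3, -1.34 for Zfp366, -0.91 for the phosphoinositide phosphatase gene Mtmr14, -0.63 for Sash1 and -0.61 for Creb3l2, a transcription factor gene of the endoplasmic reticulum.

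The remaining 4 named genes on this side overlapped within both pairs. Glt1d1, which encodes a glycosyltransferase-like protein, read 206, 175, 74.9 and 250.1 in VAV against 70.6, 67.4, 78.8 and 92.7 in CDK8KO, and gave the most negative difference, -1.66 (95% interval -2.68 to -0.64). Itga9, the integrin alpha 9 subunit, had -1.24 (-2.00 to -0.49). Xylt1, which starts proteoglycan sugar chains, had -0.81 (-1.29 to -0.33), and Rxra, the retinoid X receptor that pairs with many nuclear receptors, had -0.73 (-1.18 to -0.29).

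Interferon-stimulated genes had median effects of opposite sign in the 2 knockouts, and none passed the test. Of the 34 genes tested, 0 passed in either direction, 32 had a difference below 0 and 8 had an unadjusted p under 0.05, beside 4.76% of all genes. The median difference was -0.49, beside -0.00014 over all genes. In CDK8KO against VAV 30 of 34 were not above 0 (median -0.28), and in CDK19KO against WT 31 of 34 were above 0 (median 0.17). The knockouts themselves had a median gap of 0.0029, and the controls one of 0.45. The list mean by library (log2 of normalized count + 1) was 8.53, 8.99 and 8.86 in WT, 9.44, 9.001, 8.88 and 8.71 in CDK19KO, 9.66, 9.30, 9.07 and 9.14 in VAV, and 8.93, 9.29, 8.74 and 9.02 in CDK8KO. All VAV libraries lay above all WT libraries, and the knockouts overlapped each other and their own controls. Leaving out single libraries gave medians from -0.63 to -0.36.

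Irf7, the transcription factor that amplifies the interferon response, read 305, 423 and 423 in WT, 682, 446, 442 and 427 in CDK19KO, 553, 557, 488 and 608 in VAV and 413, 434, 291 and 543 in CDK8KO. Its difference was -0.79 (95% interval -1.34 to -0.23). Ifit1, whose promoter is printed above, read 79.9, 154 and 136 in WT against 553, 404, 268 and 279 in VAV, with no overlap. In CDK19KO it read 279, 249.8, 162 and 111, and in CDK8KO 162, 332, 166 and 246, for a difference of -1.39 (-2.37 to -0.41). Cmpk2, a mitochondrial nucleotide kinase gene, rose in VAV against WT by 0.85 (limma adjusted p = 0.0321), and its difference was -0.58 (-0.9999 to -0.15). Between the knockouts, Ifit1 and Cmpk2 differed by 0.20 and 0.27, the reverse sign of their difference of effects.

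The interferon-induced GTPases, which have a median difference of -0.27, had 11 of 14 genes below 0 and 0 past the test. Igtp had -0.65 (95% interval -1.20 to -0.10), Tgtp2 -0.98 (-1.87 to -0.09) and Gbp6 -0.84 (-1.52 to -0.16). Tgtp2 read 369.5, 287, 407 and 432 in CDK8KO, below 763, 545, 454 and 519 in CDK19KO in every library, with a direct difference of -0.60. Several GTPase genes have near-identical copies, between which reads could be divided, so their single values are uncertain. In DKO, which the contrast does not use, the list mean was 8.60, 9.16, 8.87 and 8.92. Every DKO library was above every CDK8KO library (8.13 to 8.43), but DKO overlapped VAV (up to 8.67) and CDK19KO (up to 8.65).

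Of the 33 cytokine receptor, STAT and SOCS genes, 0 passed the test and 12 had a difference above 0, with a median of -0.13. Il4ra, described above, was the member with the smallest p. Il3ra, the interleukin-3 receptor alpha chain, had -1.31 (95% interval -2.27 to -0.35), and its CDK8KO libraries read 64.1, 67.4, 72.2 and 165. Tyk2, a kinase that signals for interferon and interleukin receptors, had -0.33 (-0.64 to -0.02). Without CDK8KO replicate 4 the median was -0.24, and without CDK19KO replicate 1 it was -0.07.

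**Figure D3:**
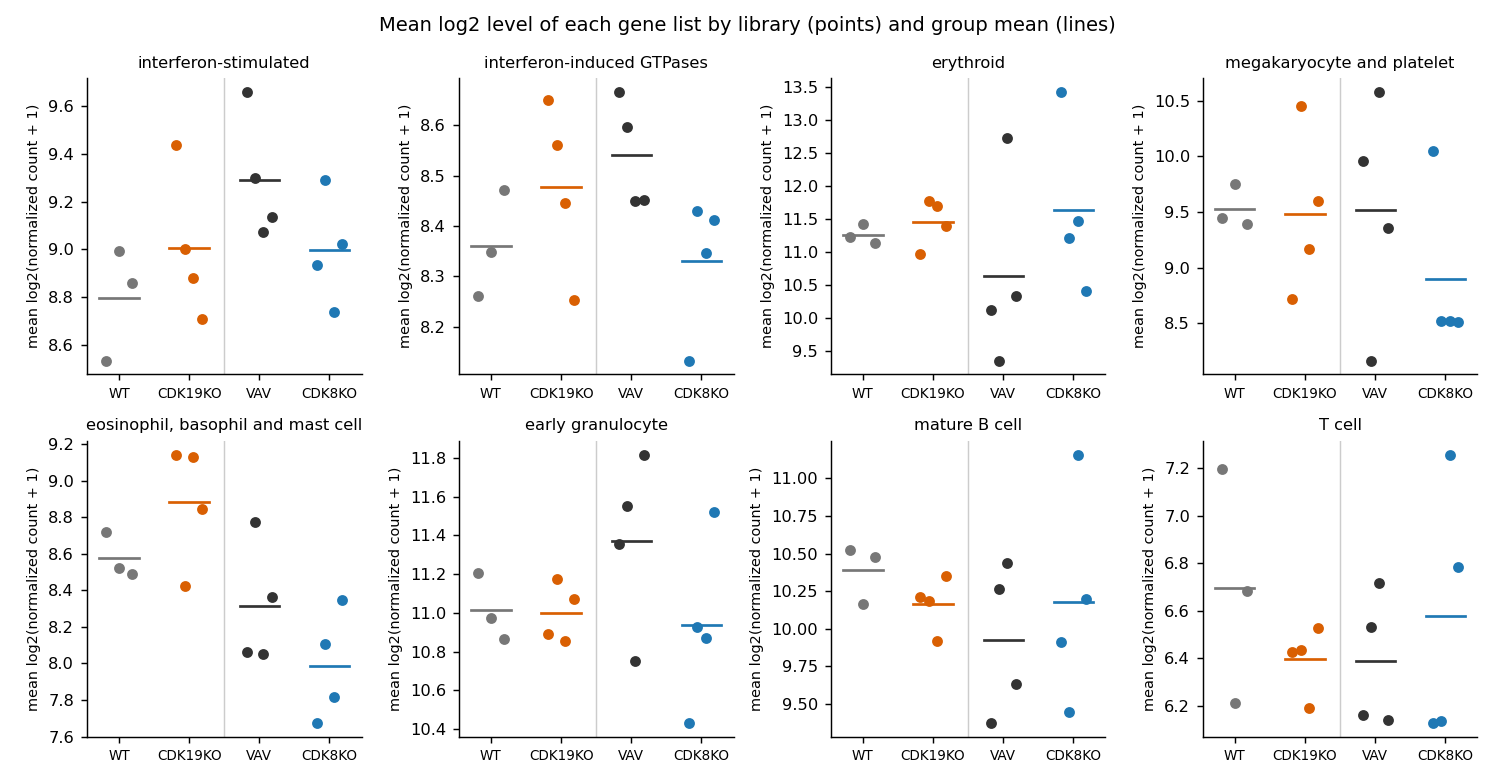
Mean of log2(normalized count + 1) over the members of 8 gene lists in each library (points) with the group mean (line); vertical axes differ between panels and do not start at 0. The CDK8KO erythroid values run from 10.41 to 13.43 and the VAV values from 9.35 to 12.72, each with 1 library far above its group, and 3 CDK8KO libraries of the megakaryocyte list sit at 8.51 to 8.52.

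Red cell genes had the largest median among the lists on the upper side. In a bulk sample, fewer cells of a type and less RNA per cell cannot be told apart, here and for each cell type below. All 29 erythroid genes had a difference above 0, 0 passed the test and 0 had an unadjusted p under 0.05. The median was 0.81, from 0.97 in CDK8KO against VAV and 0.18 in CDK19KO against WT. The controls had a median gap of -0.58, larger than the 0.185 between the knockouts. The list mean was 13.43, 11.21, 11.47 and 10.41 in CDK8KO, 10.11, 9.35, 12.72 and 10.32 in VAV, 11.22, 11.42 and 11.13 in WT, and 10.96, 11.77, 11.69 and 11.40 in CDK19KO. The median was 0.26 without CDK8KO replicate 1 and 1.44 without VAV replicate 3, the libraries rich in red cell RNA. Rhag, a membrane protein gene of red cells, had 1.12 (95% interval -0.45 to 2.69). Nxpe2 had 0.98 and Abcb10, named from the heme synthesis list, had 0.83, with intervals that also held 0. Without CDK8KO replicate 1 these 3 differences were 0.60, 0.46 and 0.32, and without VAV replicate 3 they were 1.70, 1.55 and 1.26. The heme synthesis genes followed, with 11 of 13 above 0 and a median of 0.64, which was 0.12 without CDK8KO replicate 1 and 1.18 without VAV replicate 3. Their median gap was -0.41 between the controls and 0.05 between the knockouts. Among these, Cpox, an enzyme late in heme synthesis, read 18314 in CDK8KO replicate 1 and 3192 to 7449 in the other CDK8KO libraries. Tfrc, named from the erythroid list, encodes the receptor that takes up transferrin-bound iron. It read 50204 in CDK8KO replicate 1 and 6945 to 20164 in the other CDK8KO libraries, and 23990 in VAV replicate 3. Without CDK8KO replicate 1 the differences of Cpox and Tfrc were 0.54 and 0.43, and without VAV replicate 3 they were 1.402 and 1.44.

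Megakaryocyte and platelet genes had the lowest median, -0.57, with 22 of 23 genes below 0 and 0 past the test. The list mean was 10.05, 8.52, 8.52 and 8.51 in CDK8KO, 9.96, 8.17, 10.58 and 9.36 in VAV, 9.45, 9.75 and 9.39 in WT, and 8.72, 10.46, 9.17 and 9.60 in CDK19KO. CDK8KO replicate 1, the library richest in red cell RNA, was again the highest of its group. Here the controls hardly differed (median 0.02), and the gap between knockouts was -0.62. The median was -1.06 without VAV replicate 2, -0.25 without CDK19KO replicate 2, -0.92 without CDK8KO replicate 1 and -0.27 without VAV replicate 3. Itga2b, the platelet integrin chain also called CD41, read 1771, 331, 672 and 370.0 in CDK8KO and had -1.08 (95% interval -2.83 to 0.66), which was -0.66 without VAV replicate 3. Its partner Itgb3 had -0.95 (-2.07 to 0.18), and Nbeal2, needed for platelet alpha granules, had -0.46 (-1.16 to 0.24), which was -0.22 without VAV replicate 1.

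In the eosinophil, basophil and mast cell list, too, the knockouts differed more than the controls. The median difference was -0.28, with -0.40 between the knockouts and -0.10 between the controls, 16 of 19 genes below 0 and 0 past the test. Epx, eosinophil peroxidase, read 58.7, 142, 114 and 309.7 in CDK8KO, below 843, 432, 1166 and 477 in CDK19KO in every library. VAV read 178, 828, 178 and 306 and WT 601, 499.9 and 400, so each knockout overlapped its own control. The direct difference of Epx was -2.35 (limma adjusted p = 0.15) and its difference of effects -1.63 (95% interval -3.21 to -0.04). Without VAV replicate 2 the difference of effects was -1.14. Ear6, an eosinophil-associated ribonuclease with near-identical relatives, read 20.7 to 30.6 in CDK8KO and 44.2 to 349 in CDK19KO, with a difference of -2.16 (-4.02 to -0.30). For Ear6, too, each knockout overlapped its own control (25.3 to 90.6 in VAV, 57.2 to 68.7 in WT). Gata2, a transcription factor of progenitors and mast cells, had -0.65 (-1.24 to -0.07). Without CDK8KO replicate 4 the list median was -0.53.

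Early granulocyte genes, which encode primary granule proteins and their regulators, had a median of -0.45, with 11 of 12 below 0 and 0 past the test. In CDK8KO against VAV 0 of 12 were above 0 (median -0.43), and in CDK19KO against WT 6 of 12 were (median -0.05). The controls had a median gap of 0.33, larger than the -0.12 between the knockouts. Gfi1, a transcriptional repressor needed for neutrophils, had -0.73 (95% interval -1.41 to -0.04), the serine protease gene Prss57 -0.74 (-1.63 to 0.14) and the granulocyte factor Cebpe -0.53 (-1.16 to 0.09). VAV replicate 3 was the lowest VAV library for all 3, Gfi1 reading 435 there against 792 to 841 in the others. Between the knockouts, Gfi1 and Prss57 differed by -0.28 and -0.16. Cebpe differed by 0.16, the reverse sign of its difference of effects. Without CDK8KO replicate 1 the Prss57 difference was -0.46 and the list median -0.25, and without VAV replicate 4 the list median was -0.26. Late neutrophil genes had a median of 0.11, which was -0.02 without CDK8KO replicate 2.

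Mature B cell and T cell genes had medians above 0 that moved with single libraries. Of the mature B cell genes 22 of 24 were above 0, with a median of 0.53, and of the T cell genes 22 of 25, with a median of 0.60. In both lists 0 passed the test. CDK8KO replicate 3 held the highest mean of its group in both (11.16 and 7.26), and without it the medians were 0.16 and 0.20. Without VAV replicate 1 they were 0.35 and 0.38, and without WT replicate 1 the T cell median was 0.35. The median gap between the knockouts was -0.01 for mature B cell genes and 0.15 for T cell genes, and that between the controls was -0.57 and -0.36. Cr2, complement receptor 2 of B cells, read 519 in that library and 154 to 260.0 in the other CDK8KO libraries, with a difference of 1.34 (95% interval 0.05 to 2.63). Fcrl1 and the homing receptor Ccr7 had 0.63 and 0.81, with intervals that held 0, and 0.31 and 0.52 without that library. Cd28, the T cell costimulatory receptor, had 0.75 (0.04 to 1.46), Trac, the T cell receptor alpha constant region, 1.44 (-0.02 to 2.90) and the T cell factor Bcl11b 0.83 (-0.14 to 1.80). The part of each library's cell mix in these values was not tested.

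**Figure D4:**
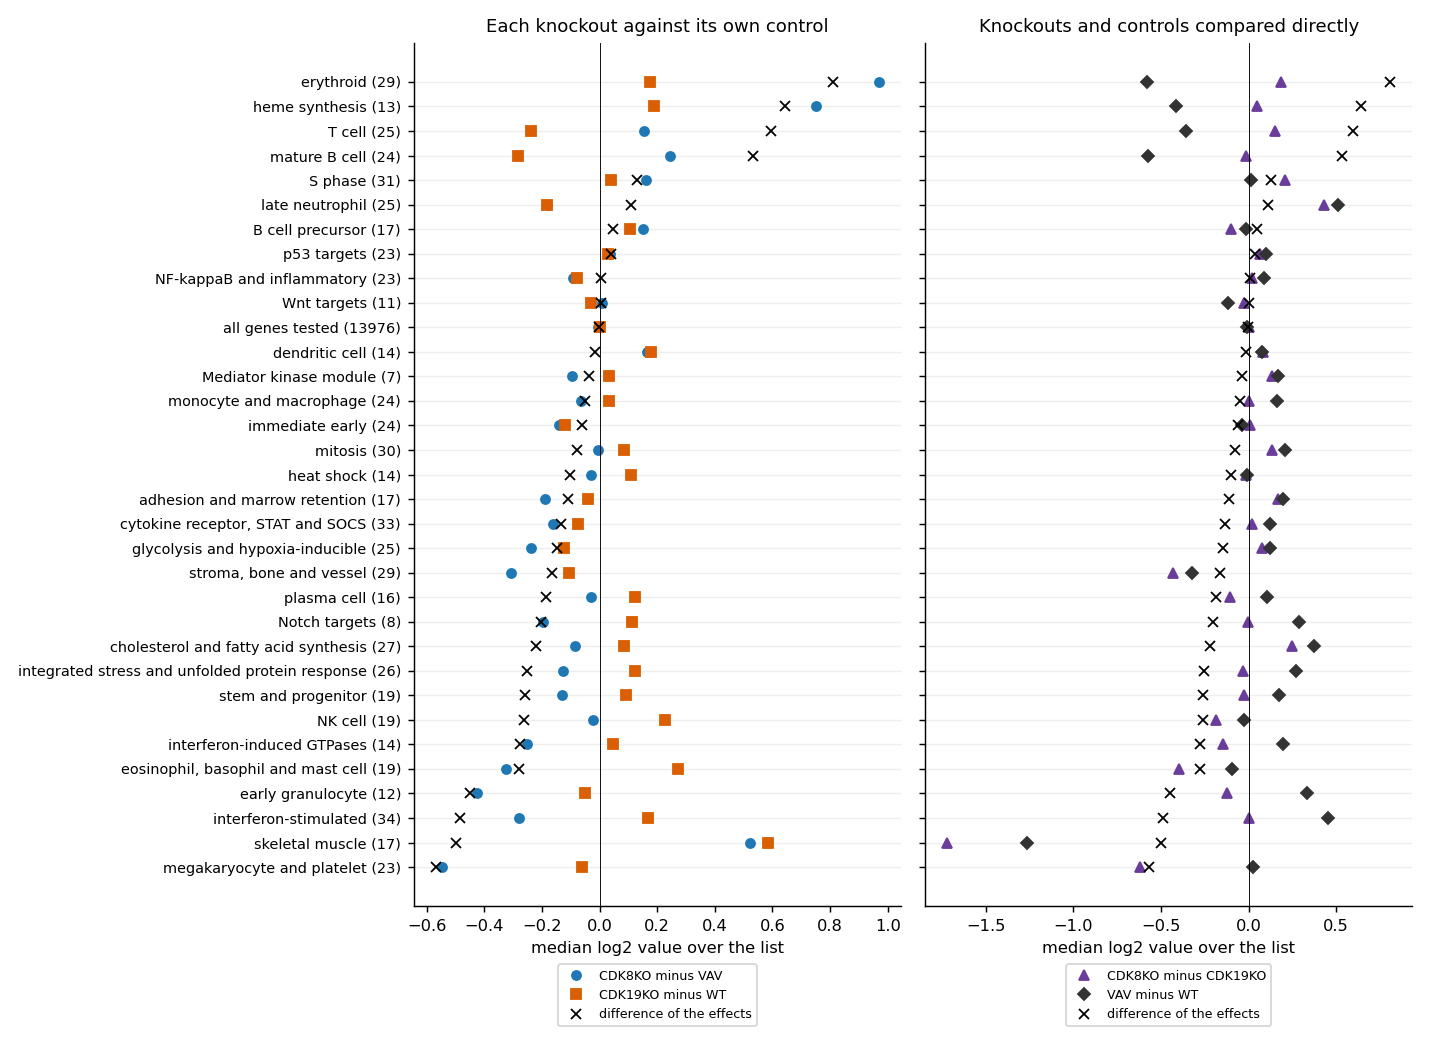
Median log2 value of each gene list (number of tested genes in brackets), with the effect of each knockout on the left and the direct differences between knockouts and between controls on the right; crosses in both panels are the difference of effects. Erythroid genes lie at 0.81 and megakaryocyte genes at -0.57, while the interferon-stimulated list lies at -0.49 with a gap of 0.45 between the controls.

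None of the members of the other lists passed the test. Genes of the integrated stress and unfolded protein response had a median of -0.25, with 22 of 26 below 0, and cholesterol and fatty acid synthesis genes had -0.22, with 23 of 27 below 0. In both lists the controls differed by more than the knockouts, by 0.27 against -0.03 and by 0.37 against 0.25. Stem and progenitor genes and NK cell genes each had a median of -0.26, and without CDK8KO replicate 1 and VAV replicate 3 the NK cell median was 0.21. Of the S phase genes 25 of 31 were above 0, with a median of 0.13, which was -0.05 without CDK8KO replicate 1. Notch targets had -0.20, plasma cell genes -0.19, stroma, bone and vessel genes -0.16, glycolysis and hypoxia-inducible genes -0.15, adhesion and marrow retention genes -0.11 and heat shock genes -0.10. Mitosis genes had -0.08, immediate early genes -0.06, monocyte and macrophage genes -0.05, dendritic cell genes -0.02, Wnt targets 0.0044, NF-kappaB and inflammatory genes 0.0067, p53 targets 0.04 and B cell precursor genes 0.05. As single libraries were left out, the median ranged from -0.45 to -0.10 for Notch targets, -0.37 to -0.06 for plasma cell genes, -0.42 to -0.04 for stroma, bone and vessel genes and -0.25 to -0.04 for glycolysis and hypoxia-inducible genes. It ranged from -0.19 to -0.04 for adhesion genes, -0.25 to -0.02 for heat shock genes and -0.55 to -0.10 for NK cell genes. The medians of the mitosis, immediate early, monocyte and macrophage, dendritic cell, Wnt, NF-kappaB, p53 and B cell precursor lists changed sign in at least 1 of these fits. Skeletal muscle genes had -0.50, which was 1.401 without CDK19KO replicate 4, the library with muscle RNA.

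DKO lay outside the contrast, and its values are given for some of the genes described above, chosen after their values were seen. Cdk19 read 1185, 1202, 1109.5 and 1196 in DKO, overlapping CDK19KO. Cdk8 read 881, 806, 761 and 742, below every WT and CDK19KO library but overlapping VAV and CDK8KO. Il4ra read 1446, 1679, 1531 and 1398, above every CDK19KO library but overlapping VAV and CDK8KO. Sox13 read 382, 316, 395 and 462, above every library of the other 4 genotypes. Lyz1 read 19.9, 17.3, 23.2 and 17.99, below every CDK8KO library but overlapping CDK19KO. Tgm3 read 26.6, 34.6, 27.4 and 30.0, below every CDK8KO library (42.2 to 61.2) and every CDK19KO library (43.1 to 62.0). These DKO values overlapped WT (19.2 to 38.6). Epx read 1295, 943, 3156 and 2230.2 and Ear6 342, 274, 1952 and 616, above every CDK8KO library but overlapping CDK19KO.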

How the data were processed

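Values came from 1 table of normalized counts, a signal that the authors deposited after dividing each library's gene counts by a size factor. Salmon 1.4.0, DESeq2 and mm10 are named in the submitters' processing notes, with no role or order. Libraries were made from polyadenylated RNA and read in pairs of 150 bases, per the labels. In every library 100% of the deposited signal values were whole multiples of 1 step (tolerance 0.001), so whole reads could be recovered for count tests. A count of 3 reads, the upper limit that a count of 0 allows, equals 2.19 to 4.50 normalized counts and covers counting error only. No 2 libraries of a group were duplicates (lowest chi-square per degree of freedom 15.55). Values are not divided by gene length, so levels of different genes are not compared.

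Of 34432 genes, 11764 had no reads, and the 13976 with a mean of at least 10 over all 19 libraries were tested. Of these, 13972 were matched by ID to GENCODE vM21, the source of coordinates on GRCm38/mm10. log2(normalized count + 1) was the input to limma 3.58.1 (R 4.3.3), using lmFit, contrasts.fit and eBayes with trend over all 5 groups, without covariate or block. Benjamini-Hochberg adjustment ran over all genes tested, with 0.05 as the threshold on the adjusted p. Fold changes on this scale understate the change of low genes. Values after ± are SEs of log2 differences, and intervals are 95% intervals from the same fit. The rule named up to 12 genes on each side by unadjusted p, requiring 50 as the mean of some group. It left out predicted genes, receptor segments, Y-linked genes and Xist. The kinase module and up to 3 members of each list described were added. Exceptions are named in the text. The comparison, the 32 gene lists and the rule were chosen with earlier results of these data known. Lists were counted and not tested. Alternatives were other pseudocounts and filters, TMM scaling, edgeR 4.0.16 and DESeq2 1.42.0 on whole reads, array weights, a replicate block, an erythroid covariate, 1 control for both knockouts and leaving out libraries. Leaving out CDK19KO replicate 4 together with the libraries rich in red cell RNA was added after seeing the data. The method was also run on simulated counts with effects set in CDK8KO alone. Those counts held no shifts in cell mix, and the outcome is not reported here. Protein sequences were not used here.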

Additional observations from a re-analysis of the deposited data

Results flagged for a closer look

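Cdk19 differed between the 2 knockout effects by 1.34 on the log2 scale (limma adjusted p = 0.00121), as described above.

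In 8 of 177 groups of 4 libraries examined over 59 named genes, 1 library stood far from the other 3 (by the gap to the nearest of them over the whole range), where chance gives about 1 in 20 groups. VAV replicate 3 was low for 2 genes of early granulocytes: Prss57 at 384 against 729 to 812, and Gfi1 at 435 against 792 to 841. That library also held 3.51% of reads in red cell genes, and the part of this in the values was not tested. CDK19KO replicate 1 was high for the interferon gene Irf7 at 682 against 427 to 446, and low for the heme enzyme gene Urod at 718 against 1135 to 1229. CDK19KO replicate 3 was low for Cebpe at 1146 against 1342 to 1376. CDK8KO replicate 3 was high for Med13 at 14935 against 8608 to 8858, and for the B cell gene Fcrl1 at 529.7 against 197 to 229. CDK8KO replicate 4 was high for Il3ra at 165 against 64.1 to 72.2.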

How the results depend on the processing

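The count of genes whose effects differed was 1, Cdk19, in every setting except 2. It was 7 with 1 control for both knockouts, which makes it the direct comparison. There Prox1 and Commd10, which separate the Cre-carrying from the Cre-free groups, passed. The count was 2 with the erythroid covariate, where Il4ra passed at 1.12. The Cdk19 difference passed in every setting run, at 1.25 to 1.42 without single libraries and at a limma adjusted p of 0.014 with only the 4 groups fitted. No scaling moved the median of all genes by more than 0.1. With 1 control for both knockouts the signs of 10 differences reversed: Med13l 0.13, Cmpk2 0.27, Tgm3 0.0915, Cdk8 -0.19, Ttyh1 -0.20, Med13 0.16, Ifit1 0.20, Cebpe 0.16, Nbeal2 0.18 and Med12 0.13. The erythroid covariate reversed Cdk8, to -0.0165. Leaving out libraries moved Med12 between -0.21 and 0.0548 and Med12l between -0.67 and 0.0425. The count for Cdk8 loss was 1 with DESeq2 and 0 to 1 without single libraries. The count for Cdk19 loss was 6 with no filter, 15 with DESeq2, 7 with array weights and 1 to 3 without single libraries. The count between knockouts was 49 with DESeq2, 42 with the covariate, 39 without CDK8KO replicate 1 and VAV replicate 3, and 5 to 17 without single libraries. The count between controls was 320 with DESeq2, 640 with array weights, 49 with the covariate, 1060 without CDK8KO replicate 1 and VAV replicate 3, 843 without CDK19KO replicate 4 as well, and 3 to 416 without single libraries. The cause of these shifts was not tested.

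The replicate numbers did not pair the samples: 2 of 21 same-numbered pairs had deviations correlated above 0.1 (range -0.27 to 0.28), and 1 of 15 libraries correlated best with its own number. With the replicate block the difference count stayed at 1 (Cdk19 1.36, limma adjusted p = 0.00297) and the count for Cdk19 loss was 1. With 3 to 4 libraries a group, the 95% interval of the difference lay wholly between -1 and 1 for 59.8% of genes.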
